A study of Triticum aestivum with 12 samples.

Results

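Ppd-A1 (TraesCS2A02G081900) and Ppd-D1 (TraesCS2D02G079600) are photoperiod response genes of bread wheat. They were found by identifier, as 2 of the 107411 genes in the deposited table, and their level was followed in 12 flag leaf libraries, 3 each of AAC Concord, AAC Starbuck, AAC Tradition and AAC Magnet. All 4 varieties are modern spring wheats under the treatment label Control, and no library comes from a drought treatment. The Western ecozone of Canada is represented by AAC Concord and the later released AAC Starbuck, and the Eastern one by AAC Tradition and the later released AAC Magnet. The sources disagree on where the plants grew, since the sample labels describe field plots in Saskatoon and the paper a greenhouse with a fixed day length. Neither gives the hour of sampling or the Ppd-1 alleles of the varieties, and nothing states whether replicates came from separate plants, so p-values measure only the spread between these libraries.

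Ppd-1 genes encode pseudo-response regulators, proteins of the circadian clock family that carry a CCT domain. In long days they raise the expression of FT1 in the leaf, whose product is the florigen that moves to the shoot apex and starts flowering, and their barley counterpart is Ppd-H1. Their transcripts rise and fall over the day, and photoperiod insensitive alleles of wheat, in which part of the promoter is missing, lose much of that rhythm. Wheat has a copy of the gene on each of the group 2 chromosomes. The copies on 2A and 2D are described here and Ppd-B1 was not analysed. The chromosome is read from the identifier. No coordinates, sequence or gene length could be matched to these identifiers, so levels of the 2 genes are not set against each other as levels, and only the change of their ratio from library to library is used.

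Values are normalized counts as deposited, with sums of 5077330 to 5902642 per library, more than TPM values could reach, although the study heads such values as TPM. Small values within a library fell on a ladder whose spacing, 0.798 to 1.24, was taken as 1 read, which, if the values are counts divided by a factor per library, placed the depth at 4484455 to 7095149 reads per library. A value of 0 would allow up to 3 reads, or 2.39 to 3.72 normalized counts, and both genes lay far above that limit in every library. Intervals given for single libraries are exact Poisson intervals at 95% on the estimated reads and cover counting error only.

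One library stood apart on the chromosome of Ppd-D1. In AAC Concord replicate 1, the 1132 genes of chromosome 2D with a mean of at least 50 had a median log2 level 0.89 below the mean of the other 2 AAC Concord libraries (median difference -0.89, quartiles -1.12 and -0.67), a level of 0.539 times theirs. Of these genes, 98.9% were lower. The drop ran along the whole chromosome, with medians of -0.99 to -0.85 in 10 equal stretches in the order of the identifiers. Outside chromosome 2D of AAC Concord, the 261 medians over chromosomes and libraries lay between -0.04 and 0.05, and chromosome 2A of the same library was at 0.01. Tests of Ppd-D1 with limma that involve AAC Concord are therefore given with and without this library. The exact permutation test of Ppd-D1 across varieties and the tests of its neighbouring genes are given only with it. A scaling of each gene by the median of its own chromosome in each library, added after this was seen, is named below as scaling by chromosome.

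**Figure D1:**
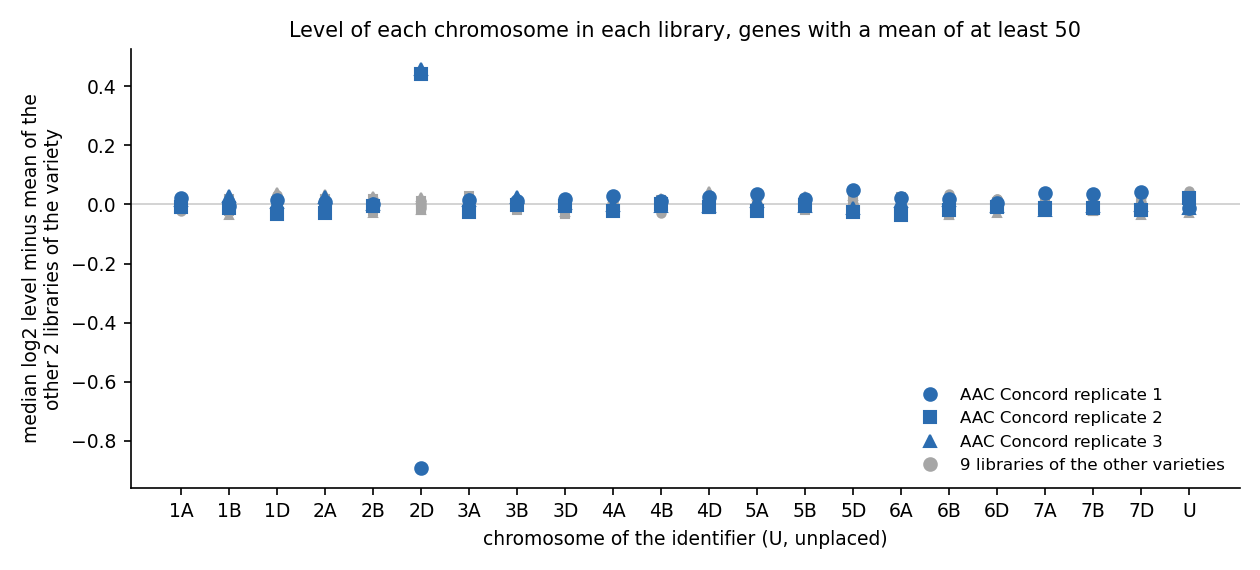
Median log2 level of the genes of each chromosome (x axis; U, unplaced) in each library, minus the mean of the other 2 libraries of its variety (y axis), for genes with a mean of at least 50; blue symbols are the AAC Concord libraries and grey symbols the 9 others. AAC Concord replicate 1 is at -0.89 on chromosome 2D, where the other 2 AAC Concord libraries are at 0.44 and 0.46, and all other points lie between -0.04 and 0.05.

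Ppd-A1 lay between 80.4 and 144 normalized counts over the 12 libraries, and no pair of varieties passed the test. The 3 libraries of AAC Starbuck had 104, 91.1 and 80.4 normalized counts in the order of their replicate numbers. AAC Concord had 143, 137 and 107, AAC Magnet had 109, 117 and 112, and AAC Tradition had 124, 144 and 92.8. No AAC Starbuck library reached the lowest library of AAC Concord or of AAC Magnet, while AAC Tradition replicate 3 fell within the range of AAC Starbuck. The gap was within counting error. Intervals were 86.5 to 124 for AAC Starbuck replicate 1, 89.1 to 128 for AAC Concord replicate 3 and 89.0 to 132 for AAC Magnet replicate 1. The share of all genes that part in this way was not counted.

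The order of the means of Ppd-A1 was AAC Concord, AAC Tradition, AAC Magnet and AAC Starbuck. AAC Concord averaged 129 ± 19.1 normalized counts (SD, n = 3), AAC Tradition 120 ± 25.7, AAC Magnet 112 ± 4.45 and AAC Starbuck 91.8 ± 11.8. No neighbours in this order passed the test. The largest gap was between AAC Starbuck and AAC Concord, with a log2 fold change of -0.48 (standard error 0.19, 95% interval -0.90 to -0.06, adjusted p = 0.12 from limma over 44026 genes), in a comparison that called 13.4% of all genes. That interval leaves out 0 before adjustment for all genes tested. Without AAC Concord replicate 1 the same difference was -0.40, with an interval of -0.88 to 0.07.

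Across the 4 varieties, limma's F test gave Ppd-A1 an adjusted p of 0.25, while the test called 22.1% of all genes at an adjusted p under 0.05. None of its 6 pairs of varieties passed (0 calls), and 1 pair had an unadjusted p under 0.05. The exact permutation test over all partitions of the libraries into 4 groups of 3 gave p = 0.12. With all 12 libraries, the 95% intervals of the 6 pairs together ran from -0.90 to 0.60 on the log2 scale. A change of 1 on this scale thus lay outside each of them. For AAC Starbuck minus AAC Concord the interval reached -1.045 without AAC Starbuck replicate 1 and -1.06 without AAC Concord replicate 3.

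Ppd-D1 varied more, and its widest spread was within AAC Concord. The 3 libraries of AAC Concord had 52.8, 149 and 55.9 normalized counts. Their counting intervals were 39.7 to 68.2 for replicate 1, 128 to 173 for replicate 2 and 43.0 to 71.5 for replicate 3. As deposited, replicate 2 was thus far above both others beyond counting error. These 2 others were the lowest values of the gene in the series. With scaling by chromosome replicate 1 was at 92.7, replicate 2 at 141 and replicate 3 at 51.7. Replicate 1 then lay above AAC Starbuck replicate 2 at 79.3 and AAC Tradition replicate 3 at 62.1.

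In AAC Magnet, Ppd-D1 had 147, 150 and 151 normalized counts, the closest agreement within a variety. These values lay closer together than counting error, with an interval of 123 to 173 for replicate 1. In AAC Starbuck it had 124, 81.1 and 109, and in AAC Tradition 109, 116 and 67.1. All 3 AAC Magnet libraries were above every library of AAC Starbuck and of AAC Tradition, while AAC Concord replicate 2 fell inside the range of AAC Magnet. Counting intervals of the nearest libraries overlapped that of AAC Magnet replicate 1, at 105 to 145 for AAC Starbuck replicate 1 and 96.0 to 139 for AAC Tradition replicate 2. The share of all genes that part in this way was not counted. AAC Magnet averaged 150 ± 2.29 normalized counts (SD, n = 3), followed by AAC Starbuck at 105 ± 21.7, AAC Tradition at 97.2 ± 26.4 and AAC Concord at 85.9 ± 54.8, and no neighbours in this order passed the test. Without replicate 1 the mean of AAC Concord was 103 ± 66.0 (SD, n = 2).

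**Figure D2:**
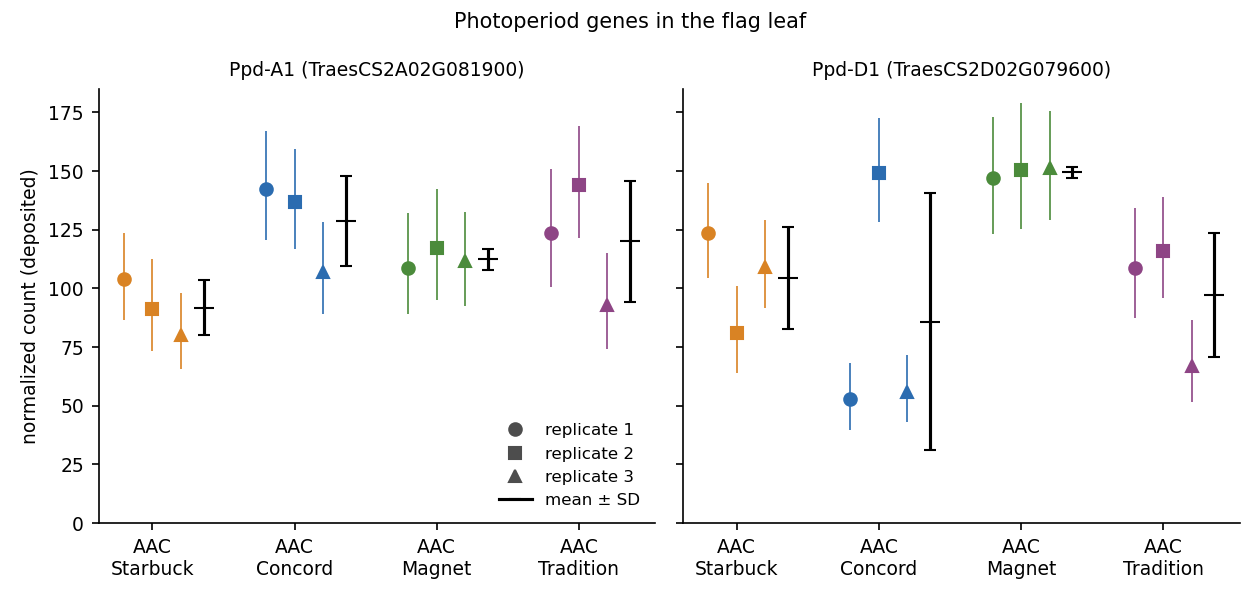
Normalized counts as deposited (y axis, from 0) of Ppd-A1 and Ppd-D1 in each library by variety (x axis). Coloured symbols are replicates with their 95% counting intervals, and black bars are the mean ± SD of 3 libraries. Ppd-A1 stays between 80.4 and 144, whereas Ppd-D1 spans 52.8 to 149 within AAC Concord alone and 147 to 151 within AAC Magnet.

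The test across the 4 varieties did not call Ppd-D1 (limma F test, adjusted p = 0.24; exact permutation test, p = 0.18), and the adjusted p of limma was 0.39 without AAC Concord replicate 1. The largest difference was between AAC Concord and AAC Magnet, with a log2 fold change of -0.96 (standard error 0.36, 95% interval -1.77 to -0.16, adjusted p = 0.11 from limma), in a comparison that called 14.0% of all genes. It was -0.70 without AAC Concord replicate 1 (adjusted p = 0.29) and -0.70 with scaling by chromosome (adjusted p = 0.20). Without AAC Concord replicate 2, the high library, it was -1.45 with an adjusted p of 0.0063, and the F test across the varieties had an adjusted p of 0.018. A call of Ppd-D1 between these varieties thus changed with that single library. The fit without replicate 2 kept replicate 1, which was low along chromosome 2D, and was not repeated with scaling by chromosome.

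The other pairs of varieties did not separate Ppd-D1 either. AAC Magnet was above AAC Tradition by 0.66 on the log2 scale (95% interval -0.15 to 1.46, adjusted p = 0.33 from limma) in a comparison that called 8.36% of all genes. AAC Starbuck was below AAC Magnet by a log2 fold change of -0.53 (interval -1.34 to 0.27, adjusted p = 0.46), where 8.08% of all genes were called. AAC Starbuck minus AAC Concord was 0.43 (interval -0.37 to 1.24), 0.17 without AAC Concord replicate 1 and 0.91 without replicate 2 (interval 0.35 to 1.48, adjusted p = 0.052 from limma). AAC Starbuck minus AAC Tradition was 0.12 (interval -0.68 to 0.93), and AAC Concord minus AAC Tradition was -0.31 (interval -1.11 to 0.49). The last of these was -0.05 without AAC Concord replicate 1 and -0.79 without replicate 2 (adjusted p = 0.11 from limma). The background shares were 13.4%, 6.82% and 9.67% of genes called in these 3 comparisons. Of the 6 pairs, 0 were called and 1 had an unadjusted p under 0.05. The intervals reached -1.77 and 1.46, so a difference of 1 on the log2 scale could not be told from 0 for Ppd-D1 in some of these pairs.

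**Figure D3:**
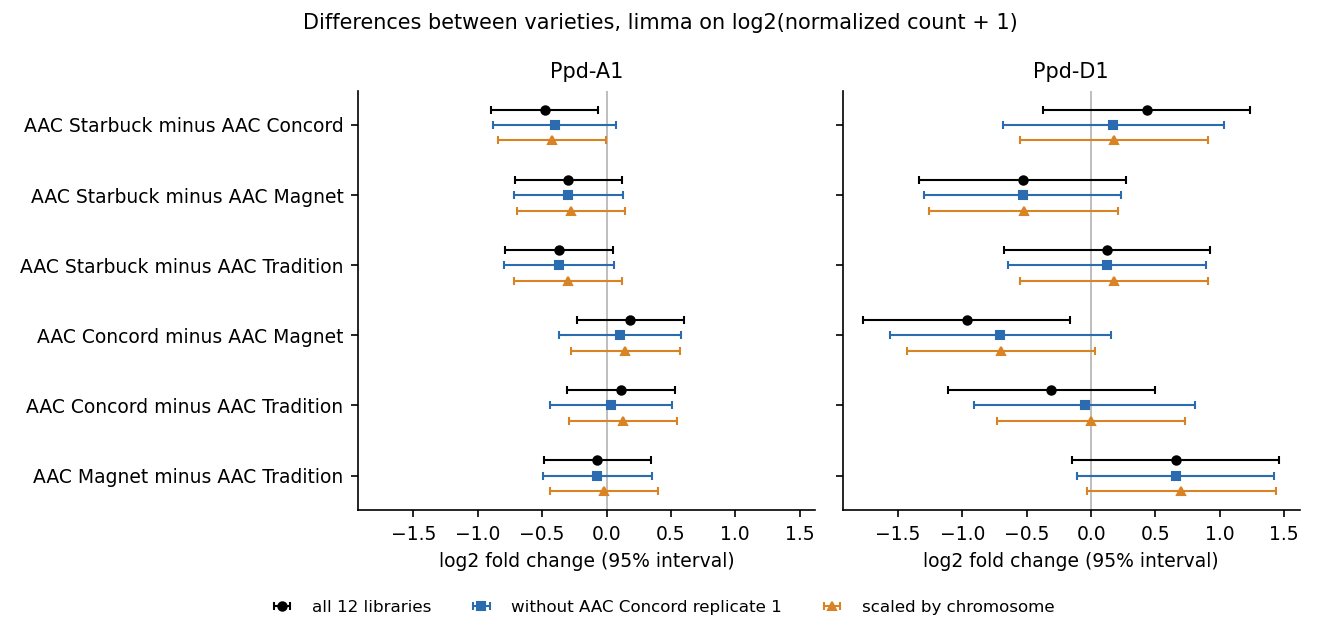
Log2 fold changes between varieties with 95% intervals (x axis) for the 6 pairs (y axis), from limma on log2(normalized count + 1). Black circles use all 12 libraries, blue squares leave out AAC Concord replicate 1 and orange triangles use scaling by chromosome. The intervals of Ppd-D1 are wider than those of Ppd-A1, and its difference between AAC Concord and AAC Magnet moves from -0.96 to -0.70 in both alternatives.

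The 4 varieties can also be split into pairs by ecozone, by release and by β-diketone content, the wax trait of the study. Only 2 varieties stood on each side, so these differences describe the 4 varieties and not the classes. Western minus Eastern was -0.09 for Ppd-A1 (95% interval -0.39 to 0.20) and -0.42 for Ppd-D1 (interval -0.99 to 0.15). Adjusted p from limma was 0.74 and 0.37, in a comparison that called 9.76% of all genes. Later minus earlier release was -0.28 for Ppd-A1 (interval -0.57 to 0.02) and 0.54 for Ppd-D1 (interval -0.02 to 1.11), with adjusted p of 0.21 and 0.20 from limma and 13.5% of genes called. The direction was thus opposite for the 2 genes, with neither past the threshold. The paper describes slightly more β-diketone in AAC Starbuck and AAC Tradition, with no significant difference between the 4 varieties in its supplement. AAC Starbuck and AAC Tradition minus AAC Concord and AAC Magnet gave -0.20 for Ppd-A1 and -0.11 for Ppd-D1 (adjusted p = 0.41 and 0.85 from limma), where 10.1% of genes were called. For Ppd-D1 this last difference was -0.24 without AAC Concord replicate 1 and 0.13 without replicate 2. For the same gene, the ecozone and release differences were -0.29 and 0.41 without AAC Concord replicate 1. Without AAC Concord replicate 2 they were -0.66 and 0.78, and their adjusted p from limma fell to 0.046 and 0.017. That fit kept replicate 1 and was not repeated with scaling by chromosome.

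The ratio of Ppd-D1 to Ppd-A1 within a library is free of library scaling, and gene length cancels when it is compared between libraries. In AAC Magnet its log2 value was 0.43, 0.35 and 0.44. In AAC Tradition it was -0.19, -0.31 and -0.46, below every AAC Magnet library. AAC Starbuck had 0.25, -0.17 and 0.43, and AAC Concord had -1.42, 0.12 and -0.93. The ratios of AAC Magnet and AAC Tradition thus did not overlap, but this pair was not tested by itself and no share of other gene pairs was counted. AAC Starbuck ran from just above AAC Tradition to within the range of AAC Magnet. AAC Concord covered the widest range, and its replicate 1 was at -0.58 with scaling by chromosome.

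The log2 ratio averaged -0.74 ± 0.79 (SD, n = 3) for AAC Concord, -0.32 ± 0.14 for AAC Tradition, 0.17 ± 0.31 for AAC Starbuck and 0.41 ± 0.05 for AAC Magnet. Its exact permutation p over the 4 varieties was 0.051, on the edge of the threshold, as 1 of 3 such tests with those of the single genes. With scaling by chromosome the mean of AAC Concord was -0.51 ± 0.53 and p was 0.034. In values as deposited, the exact p was 0.078 without AAC Concord replicate 1, 0.11 without replicate 3 and 0.00026 without replicate 2. Of the runs that left out a library, only the last passed the threshold. The ratio thus changed its side of the threshold with AAC Concord replicate 2 and with scaling by chromosome. The run without replicate 2 kept replicate 1 and was not repeated with scaling by chromosome.

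**Figure D4:**
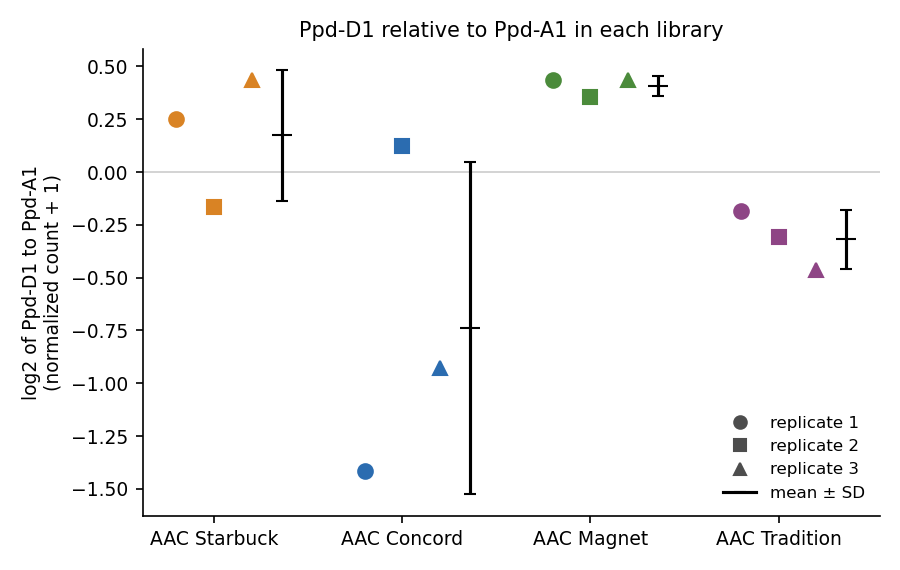
Log2 ratio of Ppd-D1 to Ppd-A1, each as normalized count + 1 (y axis), in each library by variety (x axis); symbols are replicates and black bars the mean ± SD of 3 libraries. AAC Magnet lies between 0.35 and 0.44 and AAC Tradition between -0.46 and -0.19, while AAC Concord spans -1.42 to 0.12.

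The spread between replicates, pooled over the varieties, was wider for Ppd-D1 than for Ppd-A1. The residual SD on the log2 scale was 0.22 for Ppd-A1, close to the median of 0.22 over 15513 genes with a mean of 50 to 200. It was 0.49 for Ppd-D1, and 94.0% of those genes had a smaller one. Without AAC Concord replicate 1 it was 0.47 (93.4% smaller), and without AAC Concord replicate 2 it was 0.28 (71.9% smaller). In AAC Magnet the coefficient of variation was 1.53% for Ppd-D1 and 3.95% for Ppd-A1. Counting intervals there were wider than the gaps between libraries, at 123 to 173 for Ppd-D1 and 89.0 to 132 for Ppd-A1 in replicate 1. The order of the 2 genes within AAC Magnet was therefore not resolved. The gap between AAC Concord replicates 2 and 3, neither of which was low on chromosome 2D, was 2.67-fold for Ppd-D1, or 1.40 on the log2 scale. Of the same 15513 genes, 247 (1.59%) differed at least as much between these libraries. For Ppd-A1 the difference between them was 0.35. AAC Concord replicate 1 was 0.23 above the mean of the other 2 for Ppd-A1. For Ppd-D1 the difference was -0.78, and the median of its chromosome was -0.89. That mean joined 2 unlike libraries, since Ppd-D1 had 149 normalized counts in replicate 2 and 55.9 in replicate 3. As deposited, replicate 1, with 52.8, was level with replicate 3 within counting error. With scaling by chromosome replicate 1 was at 92.7, replicate 2 at 141 and replicate 3 at 51.7. How far the value of -0.78 came from replicate 2 or from the drop along chromosome 2D was not tested.

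Whether the 2 genes moved together between replicates was read from their deviations from the variety means. AAC Tradition replicate 3 was the lowest of its variety for both genes, and so was AAC Magnet replicate 1, within counting error. In AAC Starbuck the lowest library was replicate 3 for Ppd-A1 and replicate 2 for Ppd-D1. AAC Concord replicate 1 was the highest of its variety for Ppd-A1, within counting error of replicate 2. It was the lowest for Ppd-D1, within counting error of replicate 3. With scaling by chromosome AAC Concord replicate 3 was the lowest of its variety for both genes, at 105 for Ppd-A1 and 51.7 for Ppd-D1. After removal of the variety means, Pearson's r was 0.50 (exact permutation within varieties, p = 0.27) and Spearman's rho was 0.55 (p = 0.20, same exact test). With scaling by chromosome r was 0.75 (exact p = 0.052) and rho 0.80 (exact p = 0.028), and without AAC Concord replicate 1 r was 0.76 (exact p = 0.093). AAC Tradition replicate 3 and AAC Concord replicate 3 had the deviations for Ppd-A1 farthest from the median deviation. Without these 2 libraries r was 0.01, in values not scaled by chromosome. Their removal narrows the range of Ppd-A1, which tends to lower r, so this run cannot tell whether the relation rested on them. Without AAC Tradition replicate 3 alone r was 0.31, and without AAC Concord replicate 3 alone it was 0.38. The labels name no batch within which r could be recomputed.

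The genes next to Ppd-D1 were followed in the same libraries. Of the 10 tested genes on each side in the order of the identifiers (TraesCS2D02G075500 to TraesCS2D02G084000), 19 of 20 were lower in AAC Concord replicate 1 than the mean of the other 2 AAC Concord libraries, with a median log2 difference of -0.94, and 18 of 20 were lower than both. Between AAC Concord replicates 2 and 3, where Ppd-D1 differed by 1.40, the median over these neighbours was -0.02, and 1 of 20 differed by more than 1. The contrast between these replicates was thus not seen in the neighbouring genes. The F test called 4 of the 20 neighbours, or 20%, close to the 22.1% of all genes.

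The nearest tested genes of Ppd-D1 were TraesCS2D02G079200 and TraesCS2D02G080000, to which the sources used here give no name. TraesCS2D02G079200 had a mean of 11.3 ± 4.35 normalized counts (SD, n = 3) in AAC Concord and 8.89 to 13.5 in the other varieties (F test of limma, adjusted p = 0.35). TraesCS2D02G080000 had 1073 ± 368 in AAC Concord. Replicate 1, low along chromosome 2D, had 668 there, and replicates 2 and 3 had 1165 and 1385. The mean was 1475 in AAC Starbuck, 1668 in AAC Magnet and 2100 ± 249 in AAC Tradition. Its adjusted p was 0.050 in limma's F test. For AAC Concord against AAC Tradition it was 0.024 from limma, where 9.67% of all genes were called. Both tests kept replicate 1. A further neighbour, TraesCS2D02G080900, was singled out after its values were seen. It had 293, 596 and 633 normalized counts in AAC Concord and 26.3 to 57.6 in the 9 other libraries, with no overlap. The share of all genes that part in this way was not counted. AAC Concord minus AAC Magnet was 3.85 on the log2 scale for this gene (adjusted p = 1.4e-05 from limma), so a strong difference of AAC Concord lay close to Ppd-D1 while Ppd-D1 itself was not called.

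The genes next to Ppd-A1 gave no such shift in any library. Over its 20 nearest tested genes (TraesCS2A02G076900 to TraesCS2A02G084900), the median difference of a library from the other 2 of its variety lay between -0.17 and 0.11, and it was 0.03 in AAC Concord replicate 1. The F test called 2 of 20, or 10%, against 22.1% of all genes. The nearest genes TraesCS2A02G081400 and TraesCS2A02G082000 were not called by limma (adjusted p = 0.13 and 0.20). TraesCS2A02G084800, also singled out after its values were seen, had a mean of 179 ± 22.9 normalized counts (SD, n = 3) in AAC Magnet and 336 to 538 in the other varieties.

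**Figure D5:**
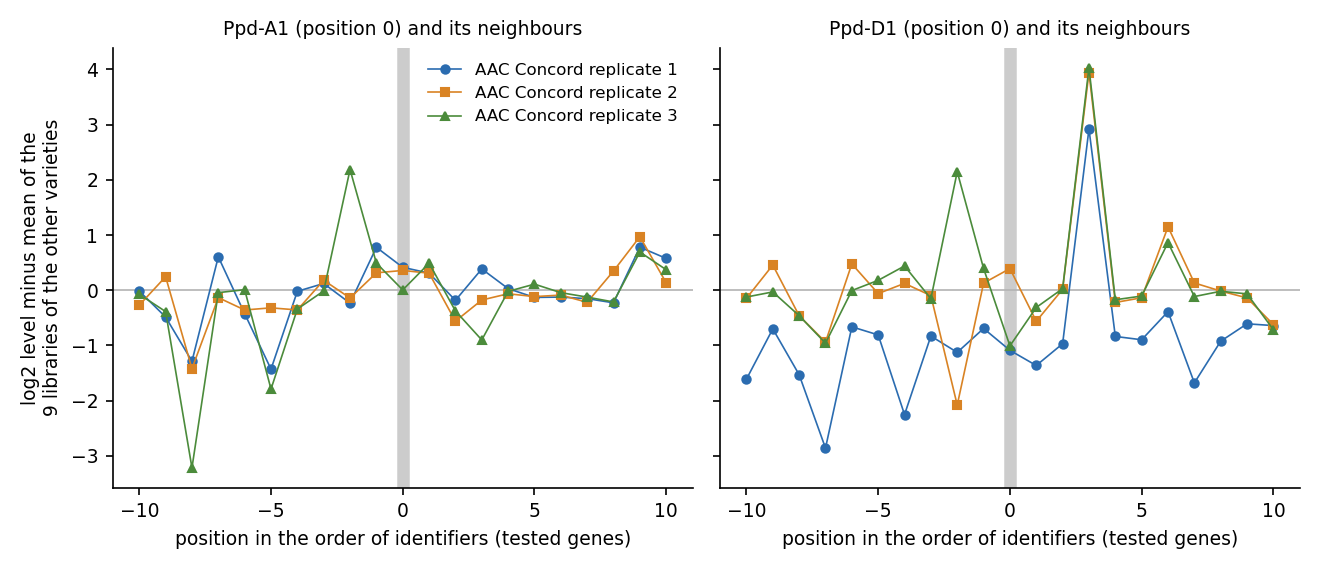
Log2 level of Ppd-A1 and Ppd-D1 (position 0, grey band) and of the 10 tested genes on each side in the order of the identifiers (x axis), minus the mean of the 9 libraries of the other varieties (y axis), for the 3 AAC Concord libraries. Around Ppd-D1, replicate 1 runs below both other replicates at 18 of 20 neighbours, whereas replicates 2 and 3 part by 1.40 at Ppd-D1 itself.

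Genes whose pattern was most like that of each gene were sought among 20928 others with a mean of at least 50, by Pearson's r of log2(normalized count + 1) over the 12 libraries. These values are a description, since the points are libraries and those of a variety are not independent of each other. For Ppd-A1, TraesCS1B02G266100 (r = 0.89) and TraesCS1D02G445700 (r = 0.88) were the most alike, both lowest in AAC Starbuck, with means of 56.1 and 140 normalized counts there against 79.0 and 216 in AAC Concord. TraesCS7A02G517800 (r = -0.90) and TraesCS5D02G321100 (r = -0.90) ran the other way. For Ppd-D1, TraesCS1D02G274600 (r = 0.88) and TraesCS4D02G083900 (r = 0.86) were the most alike, and TraesCS7D02G254000 (r = -0.86) and TraesCS4B02G066800 (r = -0.84) the most opposed. Between the 2 photoperiod genes r was 0.10, and 0.43 without AAC Concord replicate 1. Of the 100 genes most like Ppd-D1, 29 were on chromosome 2D, which holds 5.40% of the genes compared. Without AAC Concord replicate 1 the number was 3, without replicate 2 it was 7 and without replicate 3 it was 52. Of the 100 most like Ppd-A1, 7 were on chromosome 2A, which holds 5.30%.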

How the data were processed

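Flag leaf RNA of 4 varieties was sequenced in 12 libraries. According to the methods of the study, the authors trimmed the reads with Trimmomatic, assigned them with Salmon to the IWGSC RefSeq v2.1 reference and used DESeq2. The signal values in the deposited table are normalized counts, and how they were made is not given in the sources used here. The study heads such values as TPM, but their sums of 5077330 to 5902642 per library are more than TPM could reach, so they were taken as counts divided by a factor per library. Low values were whole multiples of a step per library in 85.0% to 91.3% of cases (below 20 steps, tolerance 0.05 of a step), so whole reads were not claimed and no count model was run.

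Values were analysed as log2(value + 1) with limma 3.58.1 (R 4.3.3), in a single fit of 12 libraries whose only term was variety (8 residual degrees of freedom, 2.80 from the prior). The 44026 genes that reached 10 in 3 or more libraries were kept, both photoperiod genes among them, and Benjamini-Hochberg adjustment ran over all of them. Permutation tests and figures were made in Python 3.11.15 (scipy 1.17.1, matplotlib 3.10.9, pandas 2.3.3, numpy 2.4.6). All tests are two-sided, apart from F tests, which have no direction. The pipeline was tested on simulated data.

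The genes, tests and lists were chosen with earlier results of these data known. Other genes were named by a rule, as the 2 with the highest and the 2 with the lowest correlation with each photoperiod gene (mean over libraries 50 or more), and the nearest tested gene on either side, apart from those said to be singled out. A list of other flowering genes was void, because 0 of the identifiers occur in the RefSeq table of 155467 genes. Alternatives were each library left out, a block for the replicate number, pseudocounts of 0.5 and 5, all genes unfiltered or only those averaging 50 or more, scaling to the same total or upper quartile, pairs of varieties fitted alone, and a prior variance with a trend.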

Additional observations from a re-analysis of the deposited data

How the results depend on the processing

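At the main setting none of the 22 tested results passed the threshold. A count of results that kept their side of it therefore does not measure how far an estimate moved. Among the alternatives, r of the 2 genes after removal of the variety means ran from 0.01 to 0.75. Over 22 tested results, 205 alternatives other than leaving out a library kept direction and side of the threshold in 202 cases. AAC Magnet minus AAC Tradition turned to 0.046 for Ppd-A1 with the same total per library, AAC Concord minus AAC Tradition to 0.00072 for Ppd-D1 with scaling by chromosome, and the ratio of the genes passed at p = 0.034 (exact test) with that scaling. With each library left out in turn, the adjusted p of limma's F test for Ppd-D1 ranged from 0.018 to 0.40 and for Ppd-A1 from 0.13 to 0.51, and the exact p of the ratio from 0.00026 to 0.11. For Ppd-D1, AAC Concord minus AAC Magnet ranged from -1.45 to -0.70, AAC Starbuck minus AAC Concord from 0.17 to 0.91, AAC Concord minus AAC Tradition from -0.79 to -0.049, AAC Starbuck minus AAC Tradition from -0.12 to 0.29, Western minus Eastern from -0.66 to -0.29, later minus earlier release from 0.41 to 0.78, and AAC Starbuck and AAC Tradition minus the other pair from -0.24 to 0.13. For Ppd-A1, AAC Concord minus AAC Tradition ranged from -0.060 to 0.25 and AAC Magnet minus AAC Tradition from -0.24 to 0.069. All 5 results that came to pass the threshold did so without AAC Concord replicate 2, and the cause was not tested. Those runs kept AAC Concord replicate 1, low on chromosome 2D, and were not repeated with scaling by chromosome. The log2 fold changes were the same with the replicate number as a block, adjusted p of the F test was 0.18 for Ppd-A1 and 0.26 for Ppd-D1, and no call changed. Replicate numbers gave no clear pairing, with residual correlations of -0.26 to 0.37 between libraries of the same number and -0.40 to 0.35 between others, and 5 of 12 libraries correlated best with their own number. With 3 libraries per variety, the intervals of Ppd-D1 between varieties reached beyond 1 on the log2 scale. No alternative depth was run. The residual SD and the likeness without single AAC Concord libraries were added after the data were seen.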
